A study of Homo sapiens with 8 samples.

Results

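Histone genes were measured in quiescent and cycling cells of the RL line. Members were all probe sets annotated with a single gene symbol of the H1, H2A, H2B, H3 and H4 cluster families, of the variants H2AX, H2AZ, H2AJ, H3-3 and MACROH2A, or of the other H1 genes. This gave 57 genes on 81 probe sets, of 19775 genes with a single-symbol probe set and 54675 probe sets in all. Each gene was read from the probe set with the highest mean log2 intensity over all arrays. They comprised 43 replication-dependent genes, 8 replacement variants, 2 germline H1 genes, 3 pseudogenes and 1 antisense transcript.

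RL is an established human B lymphoid cell line that carries the t(14,18) translocation, and both groups come from this 1 line. Its cells were cultured for 14 days as multicellular aggregates, stained with pyronin Y and sorted by that stain. The 4 cycling samples were pyronin Y bright and the 4 quiescent samples were pyronin Y dim, so the groups were chosen for their RNA content. Total RNA was labelled with biotin by a one-cycle protocol and hybridised to Affymetrix U133 Plus 2.0 arrays.

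Nucleosomes wrap DNA around an octamer of the core histones H2A, H2B, H3 and H4, and linker histone H1 binds where the DNA enters and leaves. Replication-dependent histone genes lie in clusters, have no introns, and are transcribed in S phase to package new DNA. Their mRNAs end in a stem-loop instead of a poly(A) tail. Replacement variants are mostly encoded by single genes with polyadenylated mRNA and are mostly deposited throughout the cell cycle. Genes were put in these classes by symbol, so a class may hold exceptions. Labelling in the one-cycle protocol is primed from poly(A) tails, so stem-loop mRNAs are read less directly than polyadenylated ones. Histone genes of 1 family are also nearly identical in their coding sequence, and probe sets whose names end in x_at or s_at can read several of them.

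The promoters of the genes on which the results turn are shown first, as the 150 bases before the RefSeq start of each gene on GRCh38.p14. Capitals mark motifs found on either strand: the H1 AC box (AAACACA), the H2B octamer (ATTTGCAT), the CCAAT box (ATTGG on the other strand), the TATA box (TATAAA) and the cell cycle homology region (TTTGAA). H1-5 (chr6:27867589-27867738, minus strand) and H3C2 (chr6:26032100-26032249, minus strand) had the largest falls, H2BC14 (chr6:27814872-27815021, plus strand) fell together with its neighbour H2AC14, H2BC21 (chr1:149886683-149886832, minus strand) rose, and H2AZ1 (chr4:99950276-99950425, minus strand) was the brightest variant.
H1-5: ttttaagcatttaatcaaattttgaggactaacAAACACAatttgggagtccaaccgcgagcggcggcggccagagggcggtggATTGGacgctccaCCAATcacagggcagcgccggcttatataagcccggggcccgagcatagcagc
H3C2: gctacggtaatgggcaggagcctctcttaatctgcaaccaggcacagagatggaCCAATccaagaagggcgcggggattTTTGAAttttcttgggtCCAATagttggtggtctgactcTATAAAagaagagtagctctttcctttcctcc
H2BC14: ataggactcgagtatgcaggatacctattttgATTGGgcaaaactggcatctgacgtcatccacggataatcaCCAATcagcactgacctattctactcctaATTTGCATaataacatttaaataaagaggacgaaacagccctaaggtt
H2BC21: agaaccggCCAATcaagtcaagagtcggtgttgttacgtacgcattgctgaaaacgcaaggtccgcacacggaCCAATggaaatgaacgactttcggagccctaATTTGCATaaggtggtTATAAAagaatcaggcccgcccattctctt
H2AZ1: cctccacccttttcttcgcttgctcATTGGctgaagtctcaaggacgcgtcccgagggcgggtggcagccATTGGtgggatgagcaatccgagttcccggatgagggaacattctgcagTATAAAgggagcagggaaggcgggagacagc

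In the whole 250 bases before the start, searched on both strands for 50 of the 57 members, the motifs followed the families. The AC box lay before 6 of 6 replication-dependent H1 genes and before no other gene of the replication-dependent or replacement classes, against 4.82% of all 35116 RefSeq promoter windows. The octamer lay before 10 of 13 H2B genes and 6 of 8 H2A genes, against 1.63% of all windows, and some of these H2A and H2B windows overlap because the genes are transcribed away from each other. It was in no window of an H1, H3 or H4 gene or of a replacement variant. CCAAT lay before 35 of 40 replication-dependent genes and 5 of 8 replacement variants, against 32% of all windows. TATAAA lay before 27 of 40 and 3 of 8, against 10.7%. An E2F motif (TTTNNCGC) lay before 11 of 40 and 0 of 8, against 5.92%, and TTTGAA before 14 of 40 and 1 of 8, against 13.3%. A match describes these letters only.

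The authors' MAS5 values are intensities on a linear scale, set to a trimmed mean of 500.1 on every array. They are relative to the other transcripts of an array and are not amounts per cell, and fewer cells with a transcript cannot be told apart from less of it per cell. The array medians still ran from 71.9 to 113.4, with the quiescent arrays higher, so tests used log2 values centred on each array's median. Differences below are quiescent minus cycling on that scale, and their median over all 11678 genes tested was -0.33, against 0.08 with the deposited scaling and -0.04 after quantile normalization. Centring lowered quiescent values relative to cycling ones, and calls were 3795 lower and 327 higher, against 1802 and 1430 with the deposited scaling. Unless another scaling is named, fell and rose refer to the centred scale. Other scalings are named where they change the call of a gene. Intensities are the deposited ones, in the order of samples 1 to 4, with mean ± SD (n = 4 per group). Adjusted p-values are from limma over all genes tested, with a threshold of 0.05. Whether the samples of a group were separate cultures is not stated in the labels, so the spread behind each p-value may be technical. The sort was read in 4 fixed genes: MKI67, PCNA and CCNB1, genes of proliferating cells, differed by -2.93, -2.15 and -2.67 and the CDK inhibitor gene CDKN1B by 0.67, all called. Summed intensities of the B cell markers measured, 5 of 6, ran from 51250 to 61831 in cycling and from 51025 to 62458 in quiescent samples, and 4 of these 5 markers were called lower on the centred scale. Those of T, NK, myeloid, endothelial and fibroblast markers stayed at or below 878 on every array. For ACTB, the control probe set at the 3′ end exceeded that at the 5′ end by a log2 value of 2.02 ± 0.20 (SD, n = 4) in cycling and 2.57 ± 0.18 (SD, n = 4) in quiescent samples (two-sided exact permutation test, p = 0.0286, the smallest possible with 70 assignments, and 0.0286 adjusted over 2 measures). For GAPDH these values were -0.05 ± 0.09 and 0.11 ± 0.02 (SD, n = 4 each, exact permutation p = 0.0286). The part of this difference in RNA quality in the histone values was not tested.

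Of the 57 histone genes, 40 were bright enough to be tested, with a mean log2 intensity not below the median over probe sets other than controls, which is at an intensity of 83.3. These were 32 of 43 replication-dependent genes, 7 of 8 replacement variants and the germline gene H1-7. The 17 others had a highest intensity on any array of 191.7 (H1-8, a linker histone of the oocyte, on quiescent array 1) and a median of their means of 36.4. They included MACROH2A2, the second macroH2A gene, whose values lay between 10.5 and 28.5, the 3 pseudogenes H1-9P, H2AC5P and H4C10P and the antisense transcript H1-10-AS1. By family, 5 of 6 H1, 7 of 8 H2A, 11 of 14 H2B, 3 of 7 H3 and 6 of 8 H4 replication-dependent genes were tested. H3-3B was not analysed here.

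Both histone classes contained genes that were lower in quiescent cells, and 1 replication-dependent gene was higher. Among the 32 replication-dependent genes tested, 12 fell, 1 rose and 19 were not called, with a median difference of -0.39. The background was 32.5% of all genes tested lower and 2.8% higher, with a median of -0.33. On this centred scale, the share of replication-dependent genes that fell was thus near the background. The falls differed in size: H1-5 and H3C2 fell by over 3 log2 units and the other 10 by less than 2. Of the 7 replacement variants tested, 4 fell and 0 rose in the limma fit (3 were not called), with a median of -0.59, and 1 variant was higher at an unadjusted p under 0.05. With the deposited scaling, 10 replication-dependent genes were lower and 3 higher, against 15.4% and 12.2% of all genes, and 2 variants were lower and 1 higher. After quantile normalization, the counts were 11 and 1 (background 16.3% and 10.5%), and again 2 and 1 for the variants. With the deposited scaling and after quantile normalization, the share of the 32 replication-dependent genes called lower was thus above the background. The difference in shares was not tested. Under all 3 scalings, 10 replication-dependent genes and 2 variants were called lower, against 14.1% of all genes, and H2BC21 was called higher. On the centred scale, the groups did not overlap in 12 replication-dependent genes with quiescent values below and in 2 with quiescent values above (H2BC21 and H4C4), and in 3 variants with quiescent values below, against 28.3% and 3.04% of all genes. In H1-2, H4C5, H3-3A and H2AZ1 the centred values were separate although the deposited intensities, given below, overlap.

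**Figure D1:**
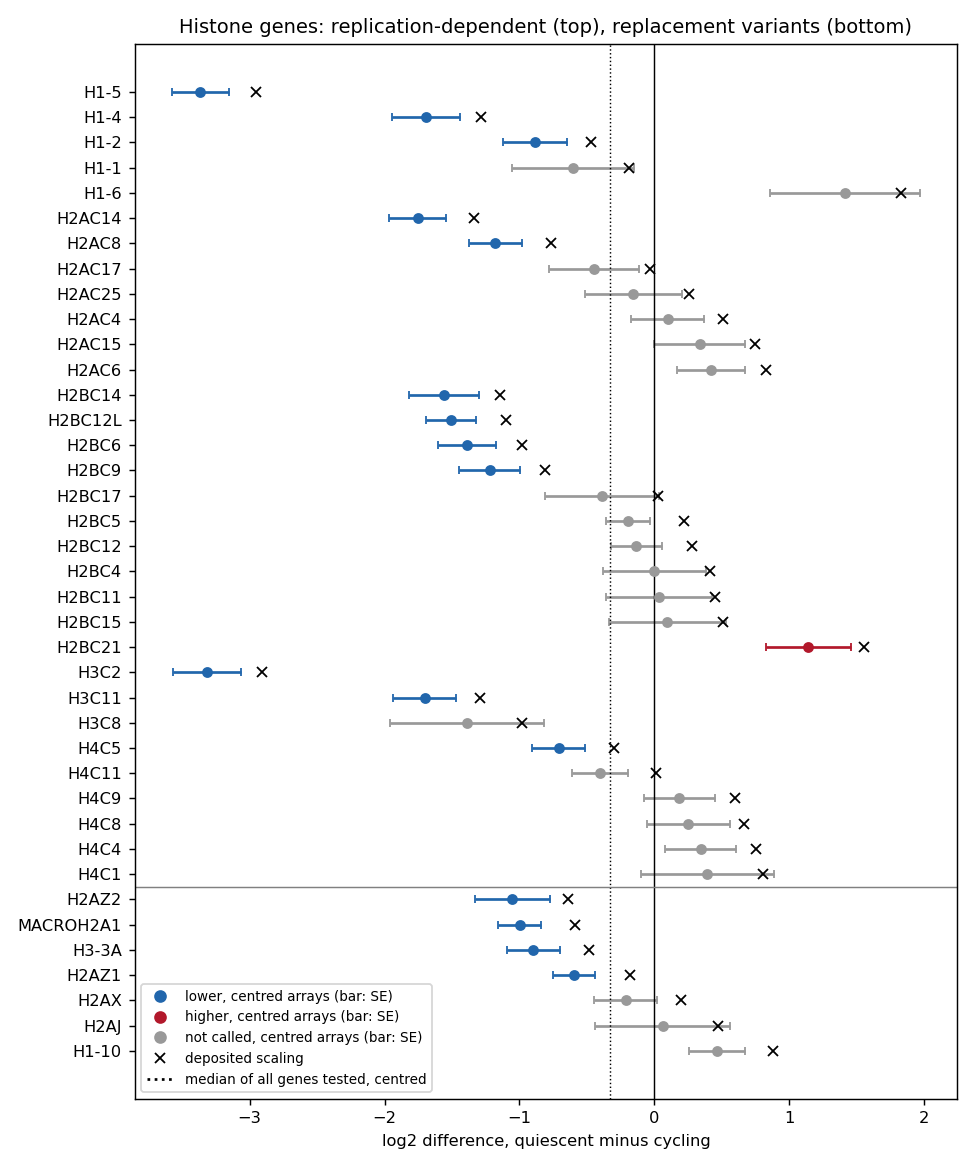
Log2 difference, quiescent minus cycling, of each histone gene tested, with its standard error, on median-centred arrays (points) and with the deposited scaling (crosses). Replication-dependent genes are at the top and replacement variants at the bottom, and the dotted line is the median of all genes tested, -0.33; H1-5 and H3C2 lie farthest to the left.

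Brightness and calls went together among the replication-dependent genes. Of the 12 whose mean log2 intensity over all arrays was at or above the 75th percentile (422) of probe sets other than controls, 9 fell and 0 rose (0 also at an unadjusted p under 0.05 in limma), with a median of -1.31, where 44.6% of all genes that bright were called lower. Of the 20 dimmer ones, 3 fell (H1-2, H2BC14 and H3C2) and 1 rose, with a median of 0.02, where 13.0% of all genes that dim were called lower. Among the 19 not called, differences ran from -1.39 to 1.41, and in 11 of them both group means were under 200. Probe sets ending in x_at or s_at were then left out, a choice made after the data were seen. Of the 20 replication-dependent genes left, 7 were called lower and 0 higher (1 higher at an unadjusted p under 0.05 in limma). On the centred scale, the share called lower was near the 32.5% of all genes. With the deposited scaling 5 of the 20 were lower, against 15.4%. Every replacement variant tested was read from a probe set ending in x_at or s_at. This choice thus left no variant to compare, and the values of the variants may include other genes.

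**Figure D2:**
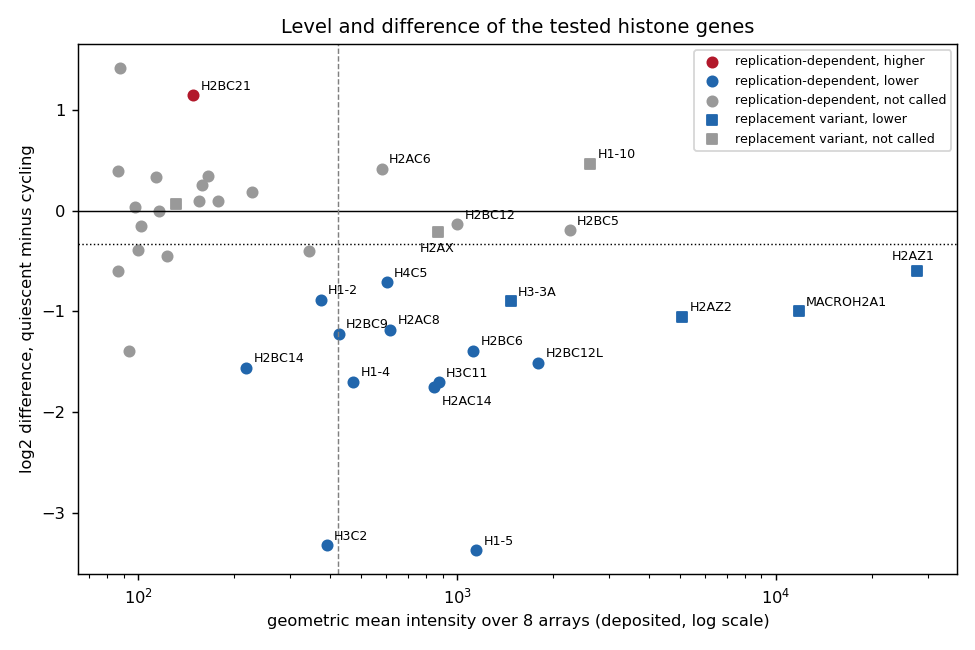
Geometric mean deposited intensity of each tested replication-dependent gene and replacement variant over all 8 arrays (log axis) against its log2 difference, quiescent minus cycling, with circles for replication-dependent genes, squares for variants and colours for the calls. The dotted line is the median of all genes tested and the dashed line marks the 75th percentile, 422; 9 of the 12 replication-dependent genes to its right fell.

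Of the 5 linker histone genes of the cluster tested, 3 fell, against 32.5% of all genes. On the centred scale H1-5 had the largest fall of the histone genes, close to that of H3C2 (-3.37 and -3.32). After quantile normalization H3C2 fell more (-3.12, against -3.01 for H1-5). H1-5, one of the S phase linker histones, had intensities of 2572, 2923, 3108 and 4493 in cycling samples and 405, 480.2, 403 and 372 in quiescent samples. Every quiescent value was below the lowest cycling value, and the means of 3274 ± 842 and 415 ± 46.1 are 7.89-fold apart. The difference was -3.37 (SE 0.21, adjusted p = 7.25e-08) and -2.95 with the deposited scaling. H1-4, a linker histone of the same cluster, fell from 753 ± 184 to 315 ± 98.5, a difference of -1.70 (SE 0.25, adjusted p = 7.74e-05). Its cycling samples read 582, 792, 644 and 994 and its quiescent samples 209, 380.3, 415 and 254, again without overlap. H1-2, a further linker histone there, differed less. It had 290.0, 478, 437 and 619.8 in cycling samples and 281, 359, 325 and 309 in quiescent samples, which overlap, and fell by 0.89 (SE 0.24, adjusted p = 0.00743). It was also called after quantile normalization (-0.68, adjusted p = 0.0349) but not with the deposited scaling (-0.47, adjusted p = 0.143). H1-1 was at -0.60 (adjusted p = 0.327). H1-6, a linker histone of the testis, was at 1.41 (SE 0.56, adjusted p = 0.059) from intensities of 20.8, 132, 90.5 and 19.1 in cycling and 135, 166, 249 and 134 in quiescent samples, and was called higher with the deposited scaling (1.83, adjusted p = 0.0383), and without cycling sample 2 (adjusted p = 0.0208) or cycling sample 3 (adjusted p = 0.0274). The AC box began 117 bases before the start in both H1-5 and H1-4 and 119 before it in H1-2, and 105 and 183 before it in H1-6 and H1-1, which were not called. It thus lay before H1 genes that fell and before H1 genes that were not called.

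Of the 3 H3 genes tested, 2 fell, against 32.5% of all genes. H3C2, which encodes the canonical replication-coupled H3, had 817, 1123, 1070.3 and 1318 in cycling samples and 103, 201, 171 and 116 in quiescent samples. The groups did not overlap, and the means, 1082 ± 206 and 148 ± 46.2, are 7.33-fold apart, a difference of -3.32 (SE 0.25, adjusted p = 1.79e-07). H3C11, another H3 gene of the same kind, had 1068, 1445, 1457 and 1566 in cycling samples and 430.1, 820.0, 620.3 and 449 in quiescent samples. It fell by 1.70 (SE 0.23, adjusted p = 3.39e-05), also without overlap. The third, H3C8, was dim, at 62.1, 127, 182 and 205 against 36.5, 28.2, 171 and 111, and its difference of -1.39 (SE 0.57, adjusted p = 0.071) did not pass. It did without cycling sample 1 (adjusted p = 0.0266) or quiescent sample 3 (adjusted p = 0.0152). The probe set of H3C2 ends in s_at, so its values may include other H3 genes.

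Among H2A genes, the core histone dimerised with H2B, 2 of 7 tested fell, a share near the 32.5% of all genes. H2AC14 had 1047, 1307, 1399 and 1721 in cycling samples and 426, 646, 495 and 589.9 in quiescent samples. The groups were separate, and the difference was -1.75 (SE 0.21, adjusted p = 1.15e-05), on an x_at probe set. H2AC8 had 584, 974, 814 and 905 against 437, 453, 521 and 485, also separate, and fell by 1.18 (SE 0.20, adjusted p = 2.11e-04). H2AC4, H2AC15, H2AC17 and H2AC25, the last on chromosome 1, lay between -0.45 and 0.34 and were not called. H2AC6 had higher means in quiescent samples: 245, 640.2, 452 and 503 in cycling and 574, 881, 941 and 750.1 in quiescent samples. These overlap, and the difference of 0.42 (SE 0.25, adjusted p = 0.219) was called only with the deposited scaling (0.83, adjusted p = 0.0354; 0.71 and 0.0552 after quantile normalization).

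H2B genes moved in both directions. Of 11 tested, 4 fell and 1 rose, against 32.5% and 2.8% of all genes. H2BC12L, an H2B gene on chromosome 21 outside the clusters, had 2083, 2642, 2653 and 3253 in cycling and 1099, 1202, 1271 and 1355 in quiescent samples. Its groups were separate, with a difference of -1.51 (SE 0.19, adjusted p = 1.44e-05). H2BC6 fell from 1617 ± 448 to 811 ± 145 (-1.39, SE 0.21, adjusted p = 1.06e-04) and H2BC9 from 576 ± 152 to 323 ± 34.9 (-1.22, SE 0.23, adjusted p = 4.93e-04), each without overlap. All 3 were read from x_at probe sets, which may share signal among H2B genes. H2BC14, read from a probe set of neither kind, had 270.2, 349, 344 and 341 against 146, 169.9, 175 and 106. It fell by 1.56 (SE 0.26, adjusted p = 1.89e-04), with every quiescent value below every cycling one.

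H2BC21, an H2B gene on chromosome 1, was the only histone gene tested that was called higher under all 3 scalings. Its intensities were 83.6, 147, 68.1 and 68.0 in cycling samples and 272, 264, 336 and 176 in quiescent samples. All quiescent samples lay above the highest cycling sample, with means of 91.8 ± 37.8 and 262 ± 66.0 that are 2.85-fold apart. The difference was 1.14 (SE 0.31, adjusted p = 0.00873), 1.55 with the deposited scaling (adjusted p = 0.00379) and 1.19 after quantile normalization (adjusted p = 0.0116), and its adjusted p reached 0.0416 without quiescent sample 3. Its cycling values lie near the lower limit of the genes tested, and its probe set ends in s_at. Polyadenylated mRNAs have been described in differentiating cells for H2BC21 and some other replication-dependent genes, among them H2BC5, H2BC12 and H2AC6. These genes were grouped after their values were seen and are not the full list. They therefore cannot show whether polyadenylated genes share a pattern. H2BC5 had 1762, 2452, 2066 and 2140.3 in cycling and 2262, 2416, 2574 and 2493 in quiescent samples, overlapping, with a difference of -0.19 (SE 0.16, adjusted p = 0.396). A second probe set of H2BC5 was at -1.01 (SE 0.52, adjusted p = 0.187 in the limma fit of probe sets). H2BC12 had 741, 1109, 798 and 1036 against 912, 1125, 1345 and 1071, also overlapping, at -0.13 (SE 0.19, adjusted p = 0.634). Neither gene was called under any of the 3 scalings. The remaining H2B genes, H2BC4, H2BC11, H2BC15 and H2BC17, lay between -0.39 and 0.10 and were not called.

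The position of the octamer varied among H2B genes with the same call and was shared by some with different calls. It began 48 bases before the start in H2BC14 and 49 in H2BC9, which fell, 46 in H2BC21, which rose, and 46 and 47 in H2BC12 and H2BC11, which were not called. It lay farther off in the other tested H2B genes that hold it, at 108 bases in H2BC6, which fell, and at 123 and 149 in H2BC4 and H2BC17, which were not called. Pairs of members transcribed away from each other, with starts at most 400 bases apart, numbered 4, all tested. In H2AC14 and H2BC14, whose starts are 244 bases apart, both genes fell, with differences of -1.75 and -1.56. In H2AC15 with H2BC15 (193 bases), H2AC17 with H2BC17 (239 bases) and H2AC6 with H2BC4 (245 bases), neither gene was called.

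Of the 6 H4 genes tested, which all encode the same protein, 1 fell, against 32.5% of all genes. H4C5 had 532, 756, 694 and 712 in cycling and 429.6, 567, 577 and 621 in quiescent samples, which overlap. It differed by -0.71 (SE 0.20, adjusted p = 0.00927), and was not called with the deposited scaling (-0.30, adjusted p = 0.237) or after quantile normalization (-0.40, adjusted p = 0.11). H4C11 was at -0.40, and H4C1, H4C4, H4C8 and H4C9 lay between 0.18 and 0.39, none called. H4C4 had 129, 171, 90.3 and 130.1 against 226, 193, 193 and 251, with quiescent values above all cycling ones but a difference of 0.34 (adjusted p = 0.345).

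**Figure D3:**
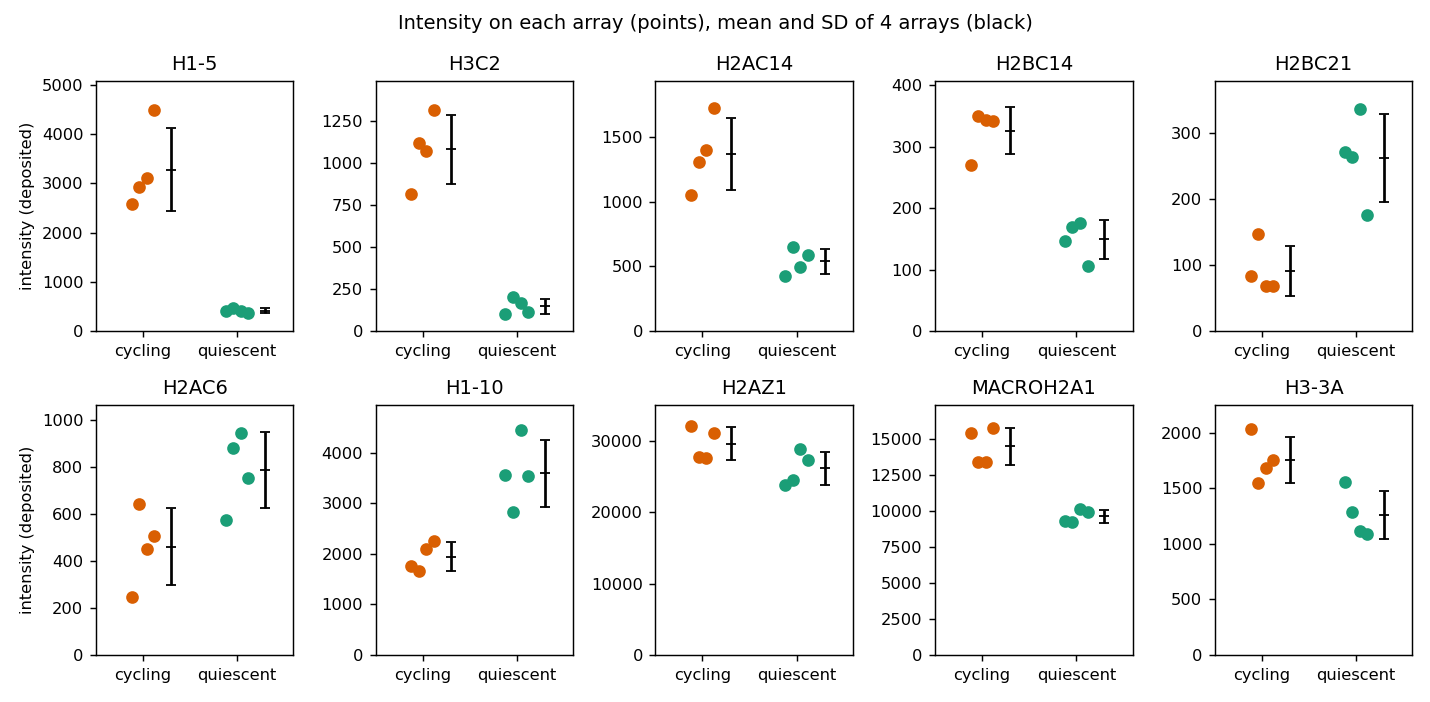
Deposited intensity on each of the 8 arrays for 10 histone genes, with the mean and SD of each group. H1-5, H3C2, H2AC14 and H2BC14 are lower on every quiescent array, H2BC21 and H1-10 are higher on every quiescent array, and the groups of H2AC6 and H2AZ1 overlap.

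Among the replacement variants, the macroH2A gene MACROH2A1, which encodes an H2A with a large additional domain found on inactive chromatin, was lower under all 3 scalings. Its intensities were 15463, 13405, 13392 and 15753 in cycling samples and 9283, 9214, 10133 and 9945 in quiescent samples. The groups were separate, with means of 14503 ± 1281 and 9644 ± 464 and a difference of -0.998 (SE 0.16, adjusted p = 1.53e-04), or -0.59 (adjusted p = 9.01e-04) with the deposited scaling. This call rests on its brightest probe sets: the mean over all its probe sets was at -0.32 (adjusted p = 0.116). H3-3A, one of the genes for the replacement H3, was also lower under all 3. It had 2035, 1543, 1686 and 1750.1 in cycling and 1554, 1283, 1111 and 1087 in quiescent samples, where 1 quiescent value exceeds the lowest cycling value, and a difference of -0.90 (SE 0.20, adjusted p = 0.00175), -0.49 with the deposited scaling (adjusted p = 0.0303).

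The H2A.Z genes, whose proteins flank active promoters, were called in these probe sets under 1 of the 3 scalings, the centred one. H2AZ1, the brightest histone gene tested, had 32097, 27712, 27706 and 31137 in cycling and 23839, 24563, 28840.2 and 27423 in quiescent samples. These overlap, with a difference of -0.59 (SE 0.15, adjusted p = 0.00571) against -0.18 (adjusted p = 0.162) with the deposited scaling and -0.16 (adjusted p = 0.215) after quantile normalization. H2AZ2 varied within its groups, at 8715, 4816, 8288 and 4688 against 5331, 2780.3, 3969.6 and 4689.8. Its difference was -1.05 (SE 0.28, adjusted p = 0.00825), and -0.64 (adjusted p = 0.0644) with the deposited scaling.

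H1-10, a linker histone encoded outside the clusters by a polyadenylated mRNA, had higher intensities in quiescent samples. It had 1763, 1655, 2100.1 and 2261 in cycling samples and 3553, 2835, 4446 and 3534 in quiescent samples, without overlap in these intensities. On centred arrays its difference of 0.47 (SE 0.21, adjusted p = 0.0928) did not pass, whereas it was called higher with the deposited scaling (0.88, adjusted p = 0.0014) and after quantile normalization (0.95, adjusted p = 7.64e-04). H2AX, the H2A phosphorylated at DNA breaks, had 526, 999, 1129.8 and 725 against 894, 1137, 910.2 and 810.5, which overlap (-0.21, adjusted p = 0.52). H2AJ, an H2A variant described in senescent cells, was dim and scattered, at 92.8, 43.3, 177 and 219 against 132, 167, 100.2 and 262 (0.06, adjusted p = 0.941).

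Differences within an array are not changed by a constant factor per array, and the brightest replication-dependent and the brightest replacement gene of 3 histone families were set against each other in this way. Log2 H1-5 minus log2 H1-10 was 0.54, 0.82, 0.57 and 0.99 on cycling arrays and -3.13, -2.56, -3.46 and -3.25 on quiescent arrays. Every quiescent array lay below every cycling array. Probe sets differ in brightness, so only the change between groups is compared. That change was -3.83, from 0.73 ± 0.21 to -3.10 ± 0.38 (SD, n = 4 per group). The two-sided exact permutation test gave p = 0.0286, or 0.0429 after adjustment over the 3 pairs. In the deposited intensities H1-5 was lower and H1-10 higher in quiescent samples, each without overlap. This p could therefore only be the smallest possible, and it adds nothing to those values. H2AC14 minus H2AZ1 went from -4.46 ± 0.33 to -5.61 ± 0.28 (SD, n = 4 each), a change of -1.16 (exact permutation p = 0.0286, adjusted 0.0429), which had an exact permutation p of 0.0571 without quiescent sample 1 or without quiescent sample 3. H3C11 minus H3-3A went from -0.35 ± 0.39 to -1.15 ± 0.54 (SD, n = 4 each), and its change of -0.80 did not pass (exact permutation p = 0.0857, adjusted 0.0857).

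Over whole classes, the contrast was smaller than over these pairs. The mean log2 of the 32 replication-dependent genes minus that of the 7 variants was -3.27, -2.62, -3.41 and -3.07 on cycling arrays and -3.51, -3.13, -2.99 and -3.30 on quiescent arrays. The values overlap, with means of -3.09 ± 0.35 and -3.23 ± 0.22 (SD, n = 4) and a change of -0.14. Without cycling sample 2 the change was 0.02, over the genes above the 75th percentile of brightness it was -0.65, and after quantile normalization it was -0.39. By mean correlation over genes, cycling sample 2 was the cycling array most like the quiescent ones (0.945 against 0.913 to 0.932 for the other cycling arrays). In the class difference, at -2.62, it instead lay farthest of the cycling arrays from the quiescent mean.

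**Figure D4:**
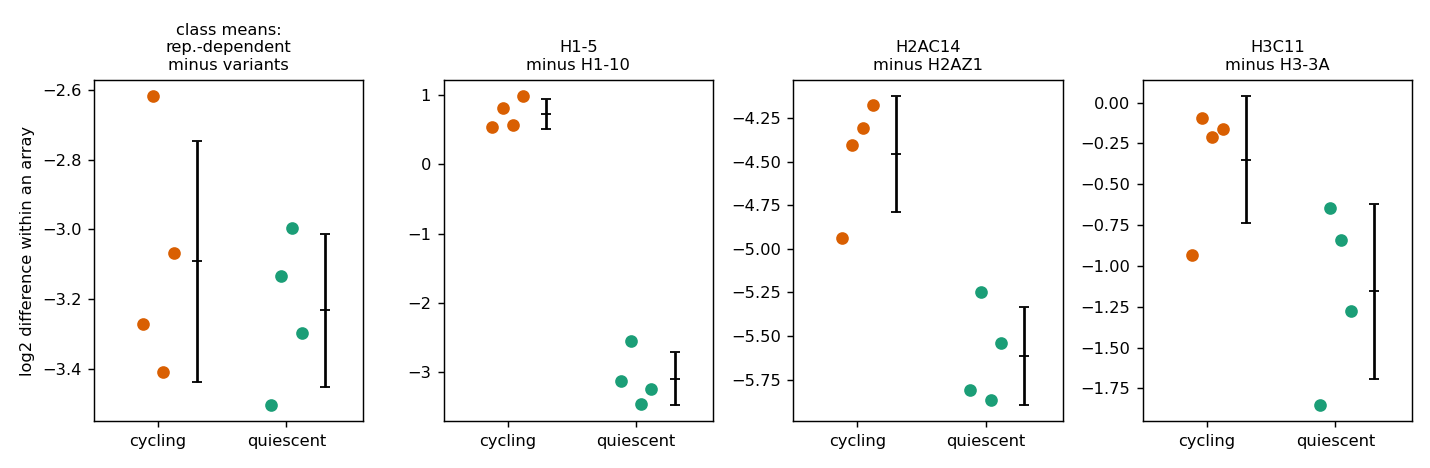
Log2 differences within each array between replication-dependent and replacement histone genes: the class means, and the pairs H1-5 and H1-10, H2AC14 and H2AZ1, and H3C11 and H3-3A. Each point is 1 array and bars are group mean and SD; the groups are farthest apart for H1-5 and H1-10 and overlap for the class means and for H3C11 and H3-3A.

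Several histone genes were read by more than 1 probe set. Of 56 histone probe sets tested, 21 were lower and 1 higher, against 23.8% and 4.26% of 27307 probe sets, and 9 genes had several. The deposited scaling gave 14 lower and 5 higher, against 10.8% and 16.3%. Both probe sets of H2AZ1 were lower, at -0.59 and -0.74, and the second was also lower with the deposited scaling (-0.33, adjusted p = 0.0232). Of the 4 of H2AZ2, those at -1.05, -0.59 and -0.55 were called and the one at -0.45 was not (adjusted p = 0.0563), and none was called with the deposited scaling, where adjusted p ran from 0.0613 to 0.826. MACROH2A1 was uneven: its 2 brightest probe sets, at -0.998 and -1.06, were called, whereas 3 others at -0.15, 0.23 and 0.35 were not. Under the deposited scaling the 2 brightest were again lower, and the one at 0.23 was called in the opposite direction, higher by 0.64 (adjusted p = 0.0407). None of the 4 of H2AX was called, with differences between -0.25 and -0.05. In H2AJ the dimmer probe set was called lower (-1.46, SE 0.42, adjusted p = 0.0167), unlike the brighter one, and was not called with the deposited scaling (-1.04, adjusted p = 0.0947). Neither of the 2 of H2BC5, at -0.19 and -1.01, was called, nor with the deposited scaling (0.22 and -0.59). A further 28 probe sets carry several symbols and are no members. These were divided only by whether an H3-3 symbol was among them. Of the 17 tested without such a symbol, 6 were lower and 2 higher, or 5 and 3 with the deposited scaling. Of the 8 that carry an H3-3 symbol, 7 were lower, against 23.8% of all probe sets, with differences between -0.92 and -0.35 over all 8. Of these 8, 3 were lower with the deposited scaling, against 10.8%.

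**Figure D5:**
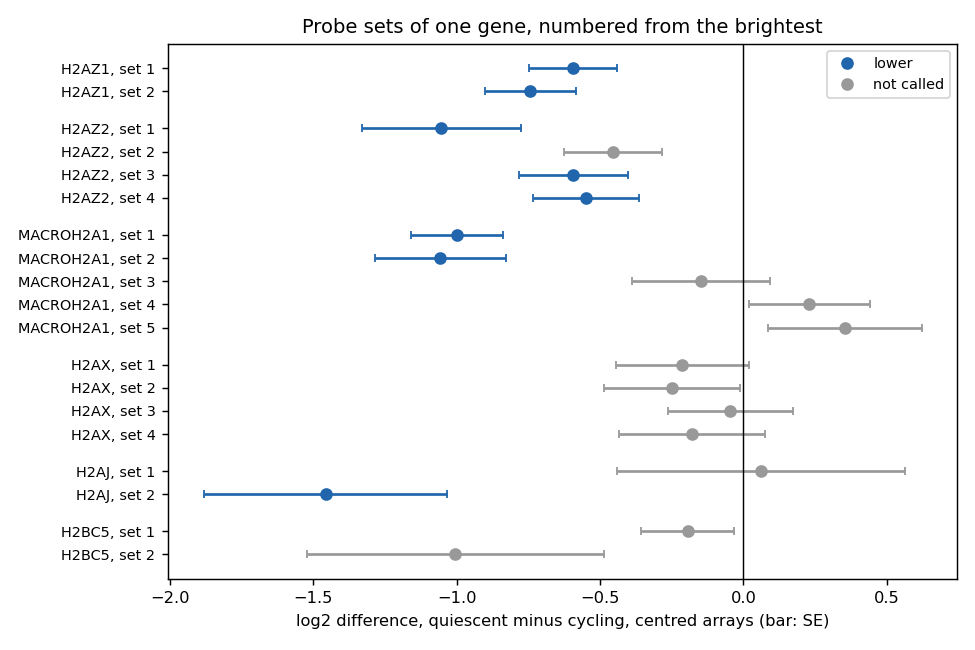
Log2 difference, quiescent minus cycling, with its standard error, of the probe sets of 6 histone genes read by several, numbered from the brightest. The probe sets of H2AZ1 and H2AZ2 all lie below 0, whereas those of MACROH2A1 lie on both sides.

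Genes that make, carry and place histones were described from lists written with earlier results of these data known. Of the 23 genes tested for transcription, 3′ processing and decay of histone mRNA, 15 fell and 0 rose (1 higher at an unadjusted p under 0.05 in limma), against 32.5% and 2.8% of all genes, with a median of -0.78 against -0.33. SLBP, which binds the stem-loop at the end of replication-dependent histone mRNA, fell from 10970 ± 1309 to 7526 ± 1130 (-0.96, adjusted p = 6.00e-04). The largest falls were in CSTF2, CPSF3, LSM11 and CPSF2, genes of the cleavage machinery and of the U7 particle, at -1.43, -1.28, -1.26 and -1.22. NPAT, the coactivator of replication-dependent histone genes, went from 1098 ± 303 to 2030 ± 530 (0.48, adjusted p = 0.0996). With the deposited scaling the list held 10 lower and 3 higher genes, against 15.4% and 12.2% of all genes, the latter NPAT (0.89), XRN1 (0.78) and TUT7 (0.57), both enzymes of RNA decay.

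Of the 12 genes tested that bring H3 and H4 to replicating DNA, 11 fell, against 32.5% of all genes, with a median of -1.19. MCM2, ASF1B, CHAF1B, CHAF1A and HAT1 fell, with differences of -2.15, -2.09, -1.72, -1.63 and -1.53. CHAF1A, the large subunit of chromatin assembly factor 1, went from 1476 ± 106 to 635 ± 72.3. Of the 12, 7 were lower with the deposited scaling, against 15.4%. Of the 7 genes for deposition of the replacement H3 outside replication, 4 fell and 0 rose (0 also at an unadjusted p under 0.05 in limma), against 32.5% and 2.8% of all genes, with a median of -0.55. DAXX, a chaperone of that variant, had the largest fall of these (-1.0004, adjusted p = 0.00736), and DEK and CABIN1 had differences of -0.84 and -0.60. HIRA, the chaperone used in transcribed genes, fell by 0.55 (adjusted p = 0.0374). ATRX, the partner of DAXX, was at -0.26 (adjusted p = 0.255). With the deposited scaling, 1 of the 7 was lower and 1, UBN2, a partner of HIRA, was higher (0.66), and neither DAXX (-0.59) nor HIRA (-0.14) was called.

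Of the 18 genes that handle H2A with H2B or exchange H2A.Z, 13 fell, against 32.5% of all genes, with a median of -0.87, and 10 were lower with the deposited scaling, against 15.4%. RUVBL1 and RUVBL2, the ATPases of the exchange complexes, fell, with differences of -2.23 and -2.10. YEATS4 fell by 1.67, and SSRP1, a subunit of the H2A-H2B chaperone FACT, fell by 1.52. All 4 tested genes of the centromeric H3 fell under the centred and the deposited scaling, against 32.5% and 15.4% of all genes, with a centred median of -2.28. HJURP, its chaperone, fell by 3.75. OIP5 and MIS18A, which prepare centromeres for it, had differences of -2.85 and -1.38. CENPA itself fell by 1.71, from 1163 ± 289 to 466 ± 48.8 (adjusted p = 1.53e-05).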

How the data were processed

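The 8 arrays were grouped by the sample titles, 4 per group. Per the submitters' processing notes the deposited values are MAS5 intensities, with a version not given in the sources used here; from the values, the authors scaled each array to a trimmed mean of 500.1. Present calls were not used here. Intensities under 1 were set to 1, taken to log2 and centred on each array's median over probe sets other than 62 controls. Names came from GEO's platform annotation, which can be old (41097 probe sets with 1 symbol, 1801 with several, 11777 unlisted), and 41037 were matched to RefSeq on GRCh38.p14. Of the 19775 genes, 11678 passed the filter.

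The group comparison used limma 3.58.1 (R 4.3.3), lmFit followed by eBayes with trend and robust settings and no covariate. P-values were Benjamini-Hochberg adjusted over all genes tested, with a threshold of 0.05. On simulated data for 11706 genes, this comparison found 93.7% of 4-fold changes and 53.7% of 2-fold changes, with 0 wrong signs and 5 false calls. The simulation had independent noise and as many changes planted up as down. The data had far more genes lower (3795) than higher (327), so these rates need not hold for them. Within-array differences were tested by two-sided exact permutation. Tables and plots used Python 3.11.15, pandas 2.3.3 and matplotlib 3.10.9. Promoter sequences are from RefSeq.

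The members, lists and tests were chosen with earlier results of these data known. Every member could be named, along with, for each list, all genes called in its rarer direction (at most 4), the 4 largest called differences in the other, and MKI67, PCNA, CCNB1, CDKN1B, SLBP, NPAT, CHAF1A, HIRA, DAXX, ATRX and CENPA. Alternatives were other scalings, filters, offsets, probe set choices, a replicate block, no trend and leaving out each sample. Some listed genes, such as POU2F1 and MMS22L, were not analysed here.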

Additional observations from a re-analysis of the deposited data

Results flagged for a closer look

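In each group of 4 arrays the sample farthest from the others was compared with Dixon's 95% critical value (0.829), on the centred log2 scale. Of 80 such groups, 2 exceeded it, where chance gives about 1 in 20. In H2AC6, cycling sample 1 was at 8.18, while the other cycling samples lay between 9.20 and 9.26; its deposited intensity was 245 against 452 to 640.2. In H2AZ1, cycling sample 2 was at 14.69, while the others lay between 15.14 and 15.21. In the deposited intensities of H2AZ1 that sample, at 27712, lay within the range of the others, 27706 to 32097.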

How the results depend on the processing

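Of the 16 histone genes called lower, 12 were also called with the deposited scaling, 13 after quantile normalization, 15 with the mean of all probe sets and 13 of the 13 tested under a stricter filter. Under no filter, an offset of 32, eBayes without trend and robust, the block and each left-out sample, 16 of 16 were called. H2BC21 was called under every alternative that tested it. With the deposited scaling, 3 replication-dependent genes and 1 variant were higher, 2 variants lower, 5 probe sets higher, 7 H3-H4 supply genes lower, 3 histone mRNA genes higher, and 1 H3.3 deposition gene each way. After quantile normalization, 1 variant, 2 probe sets, 3 histone mRNA genes and 1 H3.3 deposition gene were higher, and 2 variants, 7 H3-H4 supply genes and 1 H3.3 deposition gene lower. With the offset of 32, all genes gave 473 higher and 3319 lower, against 327 and 3795 in the main fit. Under that offset, 1 variant, 1 histone mRNA gene and 2 probe sets were higher and 2 H3.3 deposition genes lower. The last count was 2 also with no filter and without trend and robust, where all genes gave 3392 and 3384 lower. The stricter filter left 0 replication-dependent genes and 0 probe sets higher, and a class change of -0.65. Probe sets ending in neither x_at nor s_at gave 7 replication-dependent genes lower and 0 higher.

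Same-numbered samples had deviations correlated at 0.344, 0.196, 0.110 and 0.036, and quiescent sample 3 was closest to cycling sample 4 (0.138), so that not every pair exceeded 0.1 and the numbers were not taken to pair the samples, although 3 of the 4 pairs did. With the replicate number as a block, 13 replication-dependent genes were lower and 2 higher (H3C8, adjusted p = 0.0116, and H1-6, adjusted p = 0.0189, were called besides), 1 variant (H1-10), 1 histone mRNA gene and 3 probe sets were higher, and 5 H3.3 deposition genes were lower. All genes then gave 465 higher and 4443 lower, against 327 and 3795. The block and eBayes settings were not run for within-array differences.

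Leaving out 1 sample gave 1 to 2 replication-dependent genes higher (2 without cycling 2 or 3) and 1 to 2 probe sets higher. It gave 0 to 2 histone mRNA genes higher and 2 to 4 H3.3 deposition genes lower. The class change was -0.25 to 0.017, and H2AC14 minus H2AZ1 was -1.32 to -1.06. All genes then gave 223 to 358 higher and 2945 to 4536 lower.

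Differences that changed sign belong to genes not called. With the deposited scaling they were H1-7 (0.27), H2AC25 (0.26), H2AX (0.20), H2BC12 (0.28), H2BC17 (0.024), H2BC4 (0.41), H2BC5 (0.22) and H4C11 (0.011). After quantile normalization they were H2AX (0.15), H2BC12 (0.25), H2BC4 (0.0082) and H2BC5 (0.28). The offset of 32 gave H2BC4 at 0.021, and the mean of all probe sets gave H2AJ at -0.70. With 1 sample left out, ranges crossing 0 were -0.70 to 0.36 (H1-7), -0.35 to 0.051 (H2AC25), -0.044 to 0.21 (H2AC4), -0.48 to 0.40 (H2AJ), -0.41 to 0.0059 (H2AX), -0.20 to 0.20 (H2BC11), -0.45 to 0.36 (H2BC15) and -0.24 to 0.30 (H2BC4). Where a call ended, the cause was not tested. Genes with dim probe sets are limited by signal over background, since present calls were not used.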
